A study of Oryctolagus cuniculus with 9 samples.

Results

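The data compared here are the mRNA libraries of HA-VSMC cells kept with 50 nM β-estradiol for 48 h and those of their controls, 3 libraries a group. These are 6 of the 9 libraries of the series, chosen by their labels. All 12324 genes with enough counts to be tested are described, out of 19291 in the table. HA-VSMC is a cultured vascular smooth muscle line, as its name and labels have it, and the labels assign it to the rabbit (Oryctolagus cuniculus), which was not checked. The same name is usually that of a human aortic line, while the identifiers in the table are of rabbit genes, so the species of the cells is uncertain. The controls carry the treatment tag estrogen with the concentration WT, and no label says whether they received the DMSO in which estradiol was dissolved. The medium of all libraries was RPMI with fetal bovine serum, and the remaining 3 libraries were kept with 250 nM β-estradiol for 48 h. The treatment protocol in the labels states 250 nM only, so the 50 nM concentration rests on the sample titles. Nothing states that libraries of 1 group came from separate cultures: the p-values therefore rest on library-to-library spread alone, which may be technical. The title of the series ties estrogen in adenomyosis, a disease of the uterine muscle wall invaded by endometrium, to STRA6 and Wnt/β-catenin signalling.

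β-Estradiol binds the nuclear receptors ERα and ERβ, which are encoded by ESR1 and ESR2 and act on genes as DNA-bound dimers or through other transcription factors. A membrane receptor encoded by GPER1 starts rapid kinase and calcium signalling. Smooth muscle cells in culture move between a contractile state and a growing, matrix-making state, and growth factors, vasoactive peptides, TGF-β and inflammatory cytokines are among the signals that set it.

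Library totals ran from 54718407 to 72274464 deposited units, or about 13679602 to 18068616 fragments at roughly 4 units a fragment. Libraries of the same group differed by more than sampling noise (chi-square per degree of freedom 3.85 to 11.6), so none was counted as a repeat of another. On the first principal component of all 9 libraries, with 16.7% of the variance, control replicate 2 stood at -29.6 and the other controls at -9.04 and -10.1, while the 50 nM libraries lay between 13.7 and 19.1. Within the 50 nM group, replicate 3 stood at 27.1 on the second component and replicate 2 at -19.6, while replicate 1 stood at 3.81. The controls lay between 0.512 and 12.5. The median standard deviation of log2 CPM (counts relative to the scaled library total) over 6073 genes of at least 20 CPM was 0.081 in the controls and 0.085 at 50 nM. Smooth muscle identity rested on part of the usual markers: the actin gene ACTA2 held 169627 to 204095 units in each library and the myosin gene MYH11 1418 to 2415, whereas DES, the muscle intermediate filament gene, was listed at 0 in all 9 libraries and MYOCD, the cofactor of the smooth muscle programme, held 59 to 137 units. Of markers of other cells, MYOD1 and MYOG of skeletal muscle, the epithelial EPCAM and the endothelial KDR were at 0 in every library, and PTPRC of leukocytes held at most 4 units. Others of the same lists were well expressed: FLT1 of endothelium held 4367 to 5958 units, the epithelial keratin gene KRT14 4051 to 5046, and LAPTM5 of leukocytes 7133 to 9861. The epithelial keratin gene KRT7 was lower, at 162 to 315 units. None of the members tested in these lists passed at 50 nM.

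At 50 nM, 401 genes differed from the control, 3.25% of those tested (edgeR quasi-likelihood test, Benjamini-Hochberg adjusted p under 0.05). Of these, 191 were higher (1.55%) and 210 lower (1.70%), and the median over all genes was -0.00 on the log2 scale. On the deposited FPKM values, as log2(FPKM + 1), 85 were higher and 223 lower, a share of 27.6% higher against 47.6% in the counts. That scale as a whole lay lower: its median over all genes was -0.04. At 100 CPM or more its median was -0.02, against 0.03 in the counts. The part of this offset in calls lost on FPKM was not tested. The plot of difference against level shows both arms: a few strong changes, EGR1 and FOS below and TNFAIP3, REL and ADGRF4 above, and a broad set of small ones at every level from about 5 CPM upward. Of the 179 genes picked by the naming rule, 175 passed the test, and 84 of them kept their call without each of the 6 libraries in turn and in the other analyses that tested them. Genes named below by that rule are of this kind unless a sentence says otherwise; genes named after their values were seen were not followed through the other analyses, only without each library in turn. Differences are log2 fold changes, 50 nM minus control, as estimate ± SE. The class lists used below were drawn up with earlier results of these data known. Of 352 genes with a symbol that passed, 198 lie in a class, against 3726 of the 9800 tested. A class share above the 3.25% of all genes is therefore a description and no support for the class.

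**Figure D1:**
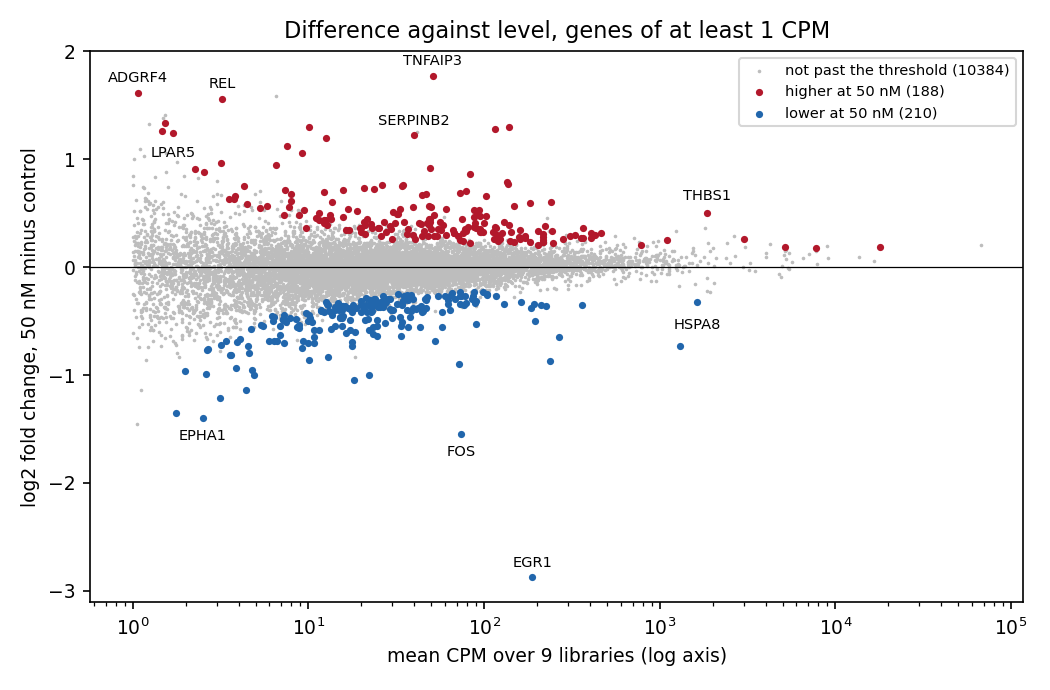
Each point is a gene of at least 1 CPM, with its mean CPM over 9 libraries on a log axis and its log2 fold change at 50 nM against control on the vertical axis. Red points (188) were higher and blue points (210) lower past the adjusted threshold, and grey points did not pass; the spread of the grey points narrows toward high levels, where red points outnumber blue ones in the counts, though not on the FPKM values.

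The receptors of the hormone were sparse and did not pass the test. ESR1 stood at 2.12, 1.38 and 1.28 CPM in the controls and 0.833, 1.66 and 1.89 CPM at 50 nM, a difference of -0.12 ± 0.35 (edgeR adjusted p = 0.927), so the groups overlapped. ESR2 averaged 0.776 ± 0.191 CPM and 0.772 ± 0.121 CPM (SD, n = 3). GPER1 was at 0 units in 7 of the 9 libraries and held at most 15 units. PGR, the progesterone receptor gene that ERα induces in reproductive tissues, stood at 11.9, 11.6 and 13.04 CPM in the controls and 10.2, 11.96 and 11.8 CPM at 50 nM, and did not pass (-0.11 ± 0.10, adjusted p = 0.706). Of 33 estrogen response genes tested, 3 rose and 1 fell, 12.1% against 3.25% of all genes. TIPARP, an ADP-ribosyltransferase, the repressor KLF10, and EGR3 rose, and the kinase gene SGK1 fell. TIPARP stood at 30.6, 33.6 and 35.6 CPM in the controls and 53.8, 49.4 and 44.0 CPM at 50 nM, with no overlap (0.56 ± 0.08, adjusted p = 0.000921). EGR3 rose by 0.91 ± 0.20 from a low level, 1.32 ± 0.122 CPM, and it lost its call without either of control replicates 1 and 2 or 50 nM replicates 1 and 2, as SGK1 (-0.27 ± 0.06) did without control replicates 1 and 3 and 50 nM replicates 1 and 2. Of 26 steroid receptor and estrogen metabolism genes, 23 retinoid genes and 40 Wnt pathway genes tested, only WLS, the Wnt ligand carrier, passed, at 0.21 ± 0.05; it lost its call without any one of 5 libraries and on the FPKM values. STRA6 did not pass (0.22 ± 0.08, adjusted p = 0.181).

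Of 94 G protein-coupled receptor and RGS genes tested, 7 rose and 0 fell, 7.45% against 3.25% of all genes, with 55 of 94 above 0 and a median of 0.04. With 1 library left out the count was 5 to 9, and on the FPKM values 5. The largest of these rises were at low levels. ADGRF4, an adhesion receptor, stood at 0.519, 0.449 and 0.761 CPM in the controls and 1.85, 1.87 and 1.59 CPM at 50 nM, and LPAR5, a receptor for lysophosphatidic acid, at 0.931, 1.22 and 0.835 CPM and 2.41, 2.70 and 1.94 CPM. Every 50 nM library was above every control for both, and the log2 fold changes were 1.61 ± 0.31 (adjusted p = 0.00871) and 1.24 ± 0.23 (adjusted p = 0.00735). The 2 bradykinin receptor genes both rose. BDKRB1, the receptor that inflammation induces, went from 78.3, 63.9 and 69.7 CPM to 104, 104 and 96.7 CPM (0.53 ± 0.07, adjusted p = 0.000588). BDKRB2, the constitutive receptor, went from 31.3, 32.5 and 28.1 CPM to 40.9, 42.2 and 39.7 CPM (0.42 ± 0.07). Among the tested genes placed in the RefSeq gene order BDKRB2 and BDKRB1 are neighbours, as are LPAR5 and IFFO1, which also rose (0.41, lost without control replicate 3). Genes that were not placed may lie between them. Among the 9310 neighbouring pairs placed, 16 had both genes called, and 11 of these had the same direction. Of the 9332 placed genes 340 were called, and how many such pairs arise without any grouping was not tested. The other 3 rises, named here after their values were seen, were the protease receptor gene F2RL1 (0.37 ± 0.05), the prostaglandin receptor gene PTGER4 (0.36 ± 0.08) and the adrenergic receptor gene ADRA1B (0.21 ± 0.05). PTGER4 lost its call without control replicates 1 or 2 or 50 nM replicate 1, and ADRA1B without each library but control replicate 1. Of 38 receptor tyrosine kinase genes tested, 0 rose and 2 fell, 5.26% against 3.25% of all genes. In this class 21 of 38 were above 0, the median was 0.03, and 2 rose without 50 nM replicate 3. The genes that fell were EPHA1 and EPHB4, both ephrin receptors. EPHA1 stood at 3.57, 2.82 and 3.61 CPM in the controls and 1.45, 1.49 and 0.843 CPM at 50 nM, lowest in replicate 3 (-1.40 ± 0.21, adjusted p = 0.00148). EPHB4 fell by 0.27 ± 0.06 and lost its call without any single control or without 50 nM replicate 1.

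Secreted ligands split by kind. Of 21 cytokine and chemokine genes, 4 rose and 0 fell (19.0%, median 0.17). Of 36 growth factor and vasoactive ligand genes 3 rose and 3 fell (16.7%, median -0.07), against 3.25% of all genes. CSF3, the granulocyte growth factor, stood at 109, 102 and 94.5 CPM in the controls and 175, 192 and 154 CPM at 50 nM (0.77 ± 0.10, adjusted p = 0.000427). LIF, a cytokine of the interleukin-6 family, went from 324, 292 and 329.8 CPM to 416, 427 and 376 CPM (0.36 ± 0.07), a call absent on the FPKM values. The monocyte chemokine gene CCL2 (0.70 ± 0.15) and IL1A (0.30 ± 0.08) passed with all libraries but not on the FPKM values, and CCL2 not without any one of control replicates 2 and 3 and 50 nM replicates 1 and 2. The cytokine count was 2 without any one of these libraries and 3 without control replicate 1; IL1A was lost without each of these 5. Without 50 nM replicate 3, 7 cytokine genes rose, and on FPKM 1 did.

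EDN1 and EDN2, genes of the endothelins, moved in opposite directions. EDN1, whose peptide constricts vessels, fell from 238, 214 and 249 CPM to 170.0, 159 and 168 CPM (-0.50 ± 0.06, adjusted p = 0.000325). EDN2, a related peptide gene at a lower level, rose from 6.24, 6.72 and 6.23 CPM to 11.4, 11.6 and 17.0 CPM, highest in replicate 3 (1.05 ± 0.14, adjusted p = 0.000524). HBEGF, a ligand of the EGF receptor, rose from 17.4, 20.5 and 19.8 CPM to 36.5, 28.8 and 32.2 CPM (0.76 ± 0.10, adjusted p = 0.000349), and the groups did not overlap for any of the 3. CYR61, a matricellular protein and YAP target, was among the most abundant genes that fell: it stood at 1616, 1531 and 1739.7 CPM in the controls and at 981, 977 and 979 CPM at 50 nM, where the 3 libraries were nearly equal (-0.73 ± 0.05, adjusted p = 1.2e-06). STC1 rose (0.39 ± 0.10) and the KIT ligand gene KITLG fell (-0.27 ± 0.06), each losing its call without at least 4 single libraries.

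Of 27 feedback inhibitors of the MAP kinase pathway tested, 4 fell, with all libraries, without each of the 6 libraries and in each of the 12 other analyses. These were the phosphatase genes DUSP1 and DUSP6 and the Sprouty genes SPRY1 and SPRY2, which restrain receptor tyrosine kinase signalling. DUSP6, which acts on ERK, stood at 15.9, 13.7 and 16.2 CPM in the controls and 9.36, 8.26 and 8.01 CPM at 50 nM (-0.84 ± 0.10, adjusted p = 0.000168), and SPRY2 at 10.7, 11.4 and 13.2 CPM and 8.06, 6.62 and 7.02 CPM (-0.70 ± 0.12, adjusted p = 0.00358). The differences of SPRY1 and DUSP1 were -0.61 ± 0.10 and -0.87 ± 0.06. The class also held rises: DUSP4, an ERK phosphatase, at 0.31 ± 0.06 and DUSP16, a JNK phosphatase, at 0.31 ± 0.06. In both directions together 22.2% of the class passed, against 3.25% of all genes. DUSP4 lost its call without 50 nM replicate 1 and on FPKM, and DUSP16 without control replicate 3; the count of rises was 4 without control replicate 2 and 5 without 50 nM replicate 3. Among 45 kinases of the cascade MAP3K8 rose (0.73 ± 0.10) and MAP3K12 (-0.60 ± 0.08) and MAP2K4 (-0.26 ± 0.07) fell; MAP2K4 lost its call under 5 other analyses and without any one of 5 libraries. The related kinases NUAK2 and NUAK1 went opposite ways, 0.41 ± 0.06 and -0.35 ± 0.06. NUAK2 stood at 98.9, 94.1 and 86.6 CPM in the controls and 127, 121 and 123 CPM at 50 nM, and NUAK1 at 219, 242 and 237 CPM and 186, 189.5 and 174 CPM.

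Of 27 genes for NF-κB subunits and inhibitors, 4 rose and 0 fell, 14.8% against 3.25% of all genes, and the 4 remained without each library. They were the subunit gene REL, the inhibitor genes TNFAIP3 and NFKBIA, and NFKBIZ, a relative of NFKBIA. The last 3 are genes that NF-κB itself induces. TNFAIP3 rose by 1.77 ± 0.11. REL, sparse in the controls at 1.71, 1.60 and 1.46 CPM, stood at 4.96, 4.99 and 4.09 CPM (1.56 ± 0.20, adjusted p = 0.000418), and NFKBIZ went from 133, 133 and 143 CPM to 223, 221 and 176 CPM (0.60 ± 0.08). The class median was 0.04. Of 39 innate immune genes 3 rose (7.69%) and 0 fell: ACOD1, which makes itaconate, from 4.56 ± 0.535 CPM to 9.92 ± 2.498 CPM though not on unfiltered FPKM, ICAM1 from 387, 342 and 353 CPM to 445, 449.9 and 453 CPM (0.32 ± 0.05), and IRAK2 (0.32 ± 0.07), the last not on FPKM nor without control replicate 3 or 50 nM replicates 1 or 2. Without 50 nM replicate 3 the innate count was 9. IRF1, an interferon-regulated factor, rose from 38.4, 40.1 and 36.6 CPM to 63.1, 63.1 and 58.2 CPM (0.68 ± 0.06, adjusted p = 1.81e-05); of the 36 interferon genes tested, the other call was GBP1 (0.36 ± 0.08), which was lost on FPKM and without every library but 50 nM replicate 3.

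TGF-β and BMP signalling had 7 of 48 genes higher and 0 lower, 14.6% against 3.25% of all genes, with a median of 0.12. ID1 and ID2, inhibitors of basic helix-loop-helix factors that BMP induces, rose by 0.69 ± 0.12 and 0.60 ± 0.10. For ID1 the libraries stood at 69.5, 47.6 and 55.8 CPM in the controls and 101, 74.8 and 102 CPM at 50 nM, with 50 nM replicate 2 close to control replicate 1. INHBB, an activin subunit, went from 102, 100.2 and 104 CPM to 122, 126 and 119 CPM (0.26 ± 0.05). TGFBI (0.19 ± 0.04) and the receptor gene TGFBR2 (0.25 ± 0.06) passed by small margins, as did ID3 (0.26 ± 0.07, named after its values were seen). TGFBI lost its call without 3 single libraries, ID3 without 4 and TGFBR2 without 5. The count was 4 without control replicate 3 or 50 nM replicate 1, 10 without 50 nM replicate 3, and on FPKM 2 rose and 2 fell; ID1, TGFBI and TGFBR2 did not pass on FPKM.

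Among transcription factors, of 70 positional identity factors (HOX, TBX and other homeobox genes), 7 fell and 1 rose, 11.4% against 3.25% of all genes. The class median was -0.21, with 21 of 70 above 0. HOXC6 stood at 22.3, 24.8 and 20.5 CPM in the controls and 13.8, 14.1 and 13.9 CPM at 50 nM (-0.69 ± 0.09, adjusted p = 0.000537), and MSX2, a BMP-responsive homeobox gene, at 29.7, 29.3 and 29.2 CPM and 18.2, 20.6 and 21.7 CPM (-0.54 ± 0.07, adjusted p = 0.000633). TBX3, a T-box repressor, was the member that rose, from 24.9, 25.7 and 23.7 CPM to 38.9, 33.8 and 33.1 CPM (0.51 ± 0.08, adjusted p = 0.0012). None of these 3 overlapped between the groups. Some lower calls lay near each other: HOXC8, HOXC6 and HOXC4 follow each other among the tested genes placed in the RefSeq gene order, and all fell (-0.29, -0.69 and -0.38). SIX4 fell too (-0.41). All 5 HOXC genes tested had values below 0, as did 6 of 8 HOXA, 6 of 7 HOXB and 1 of 4 HOXD genes. None of these 19 others passed; the median level was 21.2 CPM for HOXC, 1.68 CPM for HOXA, 4.15 CPM for HOXB and 0.680 CPM for HOXD. HOXC8 and EMX2 (-0.35) were named after their values were seen; HOXC8 lost its call without control replicates 2 or 3 or 50 nM replicates 1 or 3, and EMX2 without each library but 50 nM replicate 3. The count of lower members was 3 without control replicate 2 or 3, 2 without 50 nM replicate 1, and 7 to 9 on FPKM; HOXC4 lost its call without control replicate 2 or 50 nM replicates 1 or 3, and SIX4 without any control or 50 nM replicate 1.

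Zinc finger genes, taken by symbols that begin with ZNF, ZBTB, ZKSCAN, ZSCAN or ZFP, formed the class with the most calls; most encode DNA-binding proteins, many of them repressors. Of 214 tested, 14 fell and 4 rose, 8.41% against 3.25% of all genes. The falls include ZFP36, an RNA-binding protein counted again under RNA decay. Over the class, 34.1% of genes lay above 0, and the median was -0.09. ZNF606 stood at 3.68, 4.93 and 4.98 CPM in the controls and 1.92, 2.02 and 1.91 CPM at 50 nM (-1.21 ± 0.16, adjusted p = 0.000555). ZNF667 went from 4.70, 4.80 and 5.19 CPM to 3.15, 2.76 and 2.44 CPM (-0.81 ± 0.15) and ZNF862 from 13.8, 13.4 and 13.4 CPM to 8.06, 9.39 and 8.39 CPM (-0.65 ± 0.10). ZNF697 rose, from 123, 114 and 123 CPM to 155, 155 and 161 CPM (0.39 ± 0.05). The lower count was 9 and 8 with control replicates 2 and 3 left out and 7 without 50 nM replicate 1, and 11 to 15 on FPKM; the higher count fell to 1 on FPKM, without control replicates 2 or 3 or 50 nM replicate 2, and to 2 without 50 nM replicate 1.

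The 25 immediate early factors, which serum and growth factors switch on within minutes, had 5 members lower and 2 higher. That was 28% of the class, against 3.25% of all genes. EGR1 stood at 275, 299 and 341 CPM in the controls and 47.8, 45.9 and 30.9 CPM at 50 nM, the largest fall of a gene above 1 CPM (-2.87 ± 0.16, adjusted p = 3.93e-08). IER3 went from 337, 292 and 304 CPM to 202, 194 and 201 CPM (-0.64 ± 0.06) and MYC from 88.5, 102 and 88.2 CPM to 74.8, 71.6 and 73.9 CPM (-0.34 ± 0.07), while CSRNP1 rose (0.35 ± 0.07), a call lost on FPKM and without control replicate 2. The 2 rises became 1 without control replicate 1 or 50 nM replicate 1 or 2 and 0 without control replicate 2. FOS (-1.55 ± 0.10) and JUN, the latter at -0.23 ± 0.05 and named after its values were seen, were the other 2 that fell, and EGR3 the other that rose. JUN lost its call without each library but 50 nM replicate 3. KLF6 fell (-0.56 ± 0.08) while KLF10 rose (0.79 ± 0.07). Of 18 ETS, RUNX and TEAD factors 16 had values above 0, and ETS2 rose (0.40 ± 0.07) as did ETV5 (0.41 ± 0.08), the second not on FPKM nor without 50 nM replicate 2; ELF1 (-0.26 ± 0.07) passed only narrowly and in none of the analyses with 1 library left out. Among 20 circadian clock genes, BHLHE40, PER1 and NOCT rose and 0 fell, 15% against 3.25% of all genes. PER1, a clock repressor, went from 25.9, 26.4 and 25.2 CPM to 32.6, 36.2 and 31.9 CPM (0.38 ± 0.07), and BHLHE40, which represses clock promoters, from 59.8, 63.1 and 56.8 CPM to 112, 109.8 and 105 CPM (0.86 ± 0.07); NOCT (0.42 ± 0.10) was lost without 4 single libraries and on FPKM. In the Notch pathway the target HES1 (0.95 ± 0.16) rose and DTX2 (-0.57 ± 0.11), a Notch regulator, fell; RBPJ (0.38 ± 0.08), the DNA-binding partner of Notch, was lost on FPKM and without 4 single libraries.

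Chromatin and RNA regulators had members past the threshold in both directions. Of 164 histone and chromatin modifiers 5 rose and 8 fell, 7.93% against 3.25% of all genes. JMJD1C, a member of the demethylase family of JmjC proteins, rose from 55.5, 68.8 and 62.0 CPM to 108, 106 and 89.5 CPM (0.71 ± 0.09, adjusted p = 0.000325), and the remodeller gene CHD7 from 40.6, 45.1 and 44.0 CPM to 59.7, 65.6 and 56.5 CPM (0.49 ± 0.07). ARID4A, of a deacetylase complex, fell from 38.5, 44.1 and 38.8 CPM to 28.2, 29.0 and 25.8 CPM (-0.55 ± 0.07), and BCORL1, a corepressor, from 13.1, 12.5 and 9.81 CPM to 7.03, 7.44 and 7.22 CPM (-0.71 ± 0.12). The lower count was 4 without control replicate 2 or 3 and 3 without 50 nM replicate 1, and the higher count was 3 without control replicate 3 and 2 without 50 nM replicate 1 or 2 and on FPKM. Of 59 genes of RNA decay, 4 fell and 2 rose, 10.2% against 3.25% of all genes. Among those that fell were BTG2, ZFP36 and ZFP36L1, whose proteins bring deadenylases to mRNAs: ZFP36 went from 28.2, 24.1 and 24.1 CPM to 18.5, 17.7 and 18.3 CPM (-0.49 ± 0.09) and ZFP36L1 from 211, 232 and 216 CPM to 177, 181 and 162 CPM (-0.34 ± 0.06). ZC3H12A, an endonuclease that degrades cytokine mRNAs, rose from 75.02, 76.9 and 80.7 CPM to 110.3, 125 and 101 CPM (0.53 ± 0.07); the other rise, PAN2 (0.31 ± 0.07), was lost on FPKM and without control replicates 2 or 3 or 50 nM replicate 2. CLK1, a kinase of SR splicing factors, rose from 26.8, 29.7 and 25.4 CPM to 42.6, 46.7 and 49.0 CPM (0.76 ± 0.08, adjusted p = 5.24e-05); of 109 splicing genes 2 rose and 1 fell, 2.75% against 3.25% of all genes.

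Of 95 mitotic kinesin, kinetochore and spindle genes 10 fell and 0 rose, 10.5% against 3.25% of all genes. The median was -0.14, and 9 of 95 had a value above 0, against 49.4% of all genes. SGO2, a protector of centromeric cohesion, stood at 19.96, 22.03 and 24.3 CPM in the controls and 13.2, 13.1 and 13.6 CPM at 50 nM (-0.74 ± 0.09, adjusted p = 0.000349), and ECT2, which is needed for cytokinesis, at 41.9, 45.7 and 44.9 CPM and 35.1, 30.6 and 34.3 CPM (-0.41 ± 0.07). Both kept their calls, but the count did not: it was 14, 5 and 2 with control replicates 1, 2 and 3 left out in turn, 3 without 50 nM replicate 1 or 2, and 21 without 50 nM replicate 3. On FPKM 3 to 7 fell. Summed over the class, the level was 4443 to 4755 CPM in the controls and 3956 to 4473 CPM at 50 nM. Of 68 DNA replication and G1/S genes 0 rose and 1 fell (1.47%). Of 80 DNA repair genes 4 fell and 0 rose (5%), among the falls PMS1, a mismatch repair gene (-0.39 ± 0.07). The repair count was 2 without control replicate 2 or 50 nM replicate 2 and 1 without control replicate 3, and 3 repair genes rose without 50 nM replicate 3.

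Of 95 centrosome and cilium genes 6 fell and 0 rose, 6.32% against 3.25% of all genes. CEP97, which restrains cilium assembly, stood at 4.50, 7.33 and 7.07 CPM in the controls and 3.24, 3.31 and 2.90 CPM at 50 nM (-0.999 ± 0.18, adjusted p = 0.00494), with control replicate 1 below the other 2 controls. LCA5 (-0.86 ± 0.11), which encodes a ciliary protein, went from 12.4, 14.9 and 13.1 CPM to 6.54, 7.30 and 8.39 CPM, and PTCH1 (-0.58 ± 0.08), the Hedgehog receptor, from 24.99, 27.5 and 26.8 CPM to 17.8, 19.4 and 15.6 CPM. The class median was -0.02, near that of all genes, and the count was 3 without 50 nM replicate 1 and 8 without control replicate 1. Of 30 p53 targets and growth brakes 7 fell and 2 rose, 30% against 3.25% of all genes. BTG2 went from 91.2, 78.9 and 101 CPM to 49.6, 44.7 and 51.4 CPM (-0.89 ± 0.09). CCNG2, an atypical cyclin, went from 41.3, 42.9 and 40.1 CPM to 30.8, 29.7 and 27.1 CPM (-0.51 ± 0.07). The stress kinase PLK3 rose (0.54 ± 0.07), as did GADD45G (0.41 ± 0.07), the latter not on unfiltered FPKM. Without control replicate 3 the lower count was 4.

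Of 52 matrix glycoprotein and proteoglycan genes 4 rose and 1, CYR61, fell, 9.62% against 3.25% of all genes; 43 were above 0 and the median was 0.15. THBS1, thrombospondin 1, stood at 1438, 1535 and 1572 CPM in the controls and 2298, 2228 and 1917 CPM at 50 nM (0.50 ± 0.06), and SDC4, a cell-surface proteoglycan, at 30.1, 37.6 and 31.3 CPM and 65.4, 66.9 and 54.8 CPM (0.92 ± 0.10). Collagens and their processing enzymes had 2 of 51 higher, COL1A1 (0.18 ± 0.04) and COL1A2 (0.18 ± 0.04), a share of 3.92%, near that of all genes, and 41 of 51 above 0. COL1A2 went from 16652, 15846 and 16626 CPM to 18384, 19311 and 18125 CPM. The matrix count was 2 without control replicate 1 or 50 nM replicate 2 and 11 without 50 nM replicate 3, and the collagen count 1 without control replicate 2 or 3, 0 without 50 nM replicate 2 and 6 without 50 nM replicate 3. COL1A1 lost its call without each library but 50 nM replicate 3, and COL1A2 without 50 nM replicate 2. On FPKM 2 matrix genes and 0 collagen genes rose. Fibroblast and mesenchymal markers, a list of 15 tested genes that includes both collagens, summed to 39405 to 40535 CPM in the controls and 43533 to 45437 CPM at 50 nM. The 2 of 15 past the threshold were COL1A1 and COL1A2, which averaged 7067 and 16375 CPM in the controls and 8012 and 18607 CPM at 50 nM. VIM of the list held 427137 to 563803 units a library, COL3A1 417317 to 562248, PDGFRB 20280 to 31789 and S100A4 22328 to 33805. ENG held 21336 to 27599, DCN 9674 to 16461, FAP 3230 to 4596, NT5E 3020 to 5176 and LUM 931 to 2028. The sparse members were PDGFRA at 109 to 217, POSTN at 86 to 372, THY1 at 88 to 165 and TCF21 at 69 to 147. The part of cells of that type in the matrix result was not tested. In bulk RNA, more cells of a type and more RNA per cell cannot be told apart.

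SERPINB2, a protease inhibitor gene, rose from 24.9, 23.8 and 23.5 CPM to 55.9, 60.3 and 52.4 CPM (1.22 ± 0.07, adjusted p = 1.23e-07), and the urokinase gene PLAU from 208, 199 and 227 CPM to 260.2, 267 and 275 CPM (0.34 ± 0.06), the latter not on unfiltered FPKM. Of 36 smooth muscle contractile genes and SRF cofactors 2 rose and 0 fell, 5.56% against 3.25% of all genes. The rises were MRTFA (0.27 ± 0.06), an SRF cofactor, and PDLIM7 (0.31 ± 0.07). Neither passed on FPKM; without control replicate 3 or 50 nM replicate 2 the count was 0, and without 50 nM replicate 3 it was 4. ACTA2 averaged 3013 CPM in the controls and 3018 CPM at 50 nM. NEDD9, a docking protein of focal adhesions, rose from 178, 204 and 182 CPM to 299, 303 and 256 CPM (0.61 ± 0.07), and RIN2, a RAB5 activator, from 84.5, 78.9 and 78.0 CPM to 133, 135 and 113 CPM (0.66 ± 0.07).

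Metabolic and stress classes differed in their counts, set here beside the 3.25% of all genes that passed. Of 35 hypoxia-response genes 3 rose, BHLHE40 among them, and 1, PFKFB3, fell (11.4%); the rises numbered 1 without control replicate 1 and 8 without 50 nM replicate 3. Of 56 deubiquitinases 3 rose, led by TNFAIP3, and 2 fell (8.93%); the rises numbered 1 without control replicate 2 or 50 nM replicate 2, and the falls 0 without control replicate 2 and 1 without control replicate 3 or 50 nM replicate 1 or 2. Of 36 genes of the unfolded protein response 3 fell and 0 rose (8.33%), with 1 fall left without control replicates 2 or 3 or 50 nM replicate 1. HK2, the inducible hexokinase, rose from 25.3, 27.6 and 26.5 CPM to 48.9, 47.4 and 37.7 CPM (0.76 ± 0.09, adjusted p = 0.000216), while PFKFB3 was lower (-0.35 ± 0.07, lost without 50 nM replicate 2); 0 others of 33 glycolytic genes passed. The chaperone HSPA8 fell from 1792, 1841 and 1828 CPM to 1486, 1399 and 1471 CPM (-0.33 ± 0.04) and HSPA2 from 46.1, 48.4 and 44.7 CPM to 36.0, 35.2 and 34.9 CPM (-0.39 ± 0.07). Of 74 heat shock genes 3 were lower and 0 higher, 4.05% against 3.25% of all genes (5 lower without control replicate 1). EIF2AK3, the sensor kinase PERK of the unfolded protein response, fell from 29.8, 36.0 and 30.9 CPM to 21.5, 23.3 and 22.5 CPM (-0.52 ± 0.08). Of 193 solute carriers 5 rose and 1 fell, 3.11% against 3.25% of all genes, the fall being SLC45A3 (-0.94 ± 0.17); the rises numbered 2 without control replicate 2 or 3 and 1 without 50 nM replicate 1 or 2. With 3.25% of all genes passing, a small class can hold 0 calls without being unaffected. In 17 of the 70 classes 0 genes passed. Among these were 63 respiratory chain genes (median -0.05), 41 proteasome genes, 32 cytosolic and 52 mitochondrial ribosomal proteins, 32 tRNA synthetases, 71 autophagy and lysosome genes, 32 cholesterol genes (median -0.12, 10 above 0), 20 integrins and 62 cadherin and guidance genes.

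**Figure D2:**
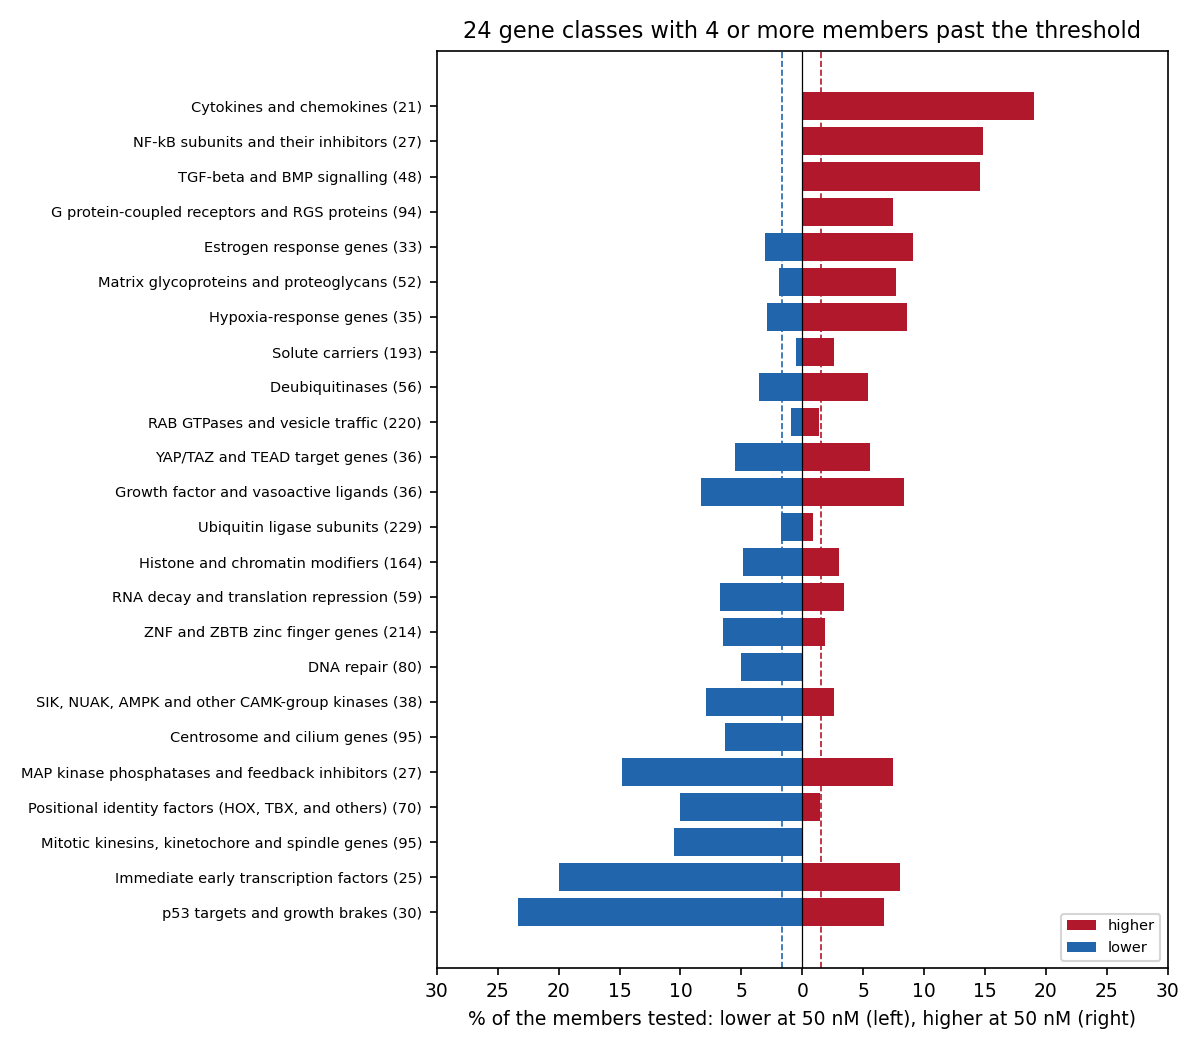
Bars give, for 24 of the classes with 4 or more members past the threshold, the share of its tested members (number in brackets) that were higher (red, right) or lower (blue, left) at 50 nM; dashed lines mark the shares of all genes, 1.55% and 1.70%. Cytokines, NF-κB, TGF-β and G protein-coupled receptor classes have bars only on the right, and mitotic, centrosome and DNA repair classes only on the left. The lists were drawn up with earlier results of these data known, so bars beyond the dashed lines are a description only.

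Genes that rose and genes that fell differed in level. In the counts, genes of 100 CPM or more that passed were mostly higher, 56 up and 16 down of 1694 tested, and genes under 20 CPM mostly lower, 50 up and 93 down of 6251. From 20 to 100 CPM the numbers were 85 and 101 of 4379. In the counts all genes tested, passing or not, were shifted the same way, with a median of 0.03 at 100 CPM or more and -0.02 under 20 CPM. Without overlap between the groups, 260 genes were higher and 65 lower at 100 CPM or more, and 456 and 717 under 20 CPM. The part of this shift in the calls was not tested. The median level of the genes that rose was 49.5 CPM and of those that fell 22.8 CPM, against 19.4 CPM over all genes. The genes that rose held 4.81% of the summed CPM in the controls and 5.55% at 50 nM, and those that fell 1.28% and 0.893%. On log2(FPKM + 1) the genes under 20 CPM were again mostly lower, 27 up and 104 down, but at 100 CPM or more 15 were higher and 17 lower. Each leave-one-out analysis kept more rises than falls at 100 CPM or more and more falls than rises under 20 CPM.

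**Figure D3:**
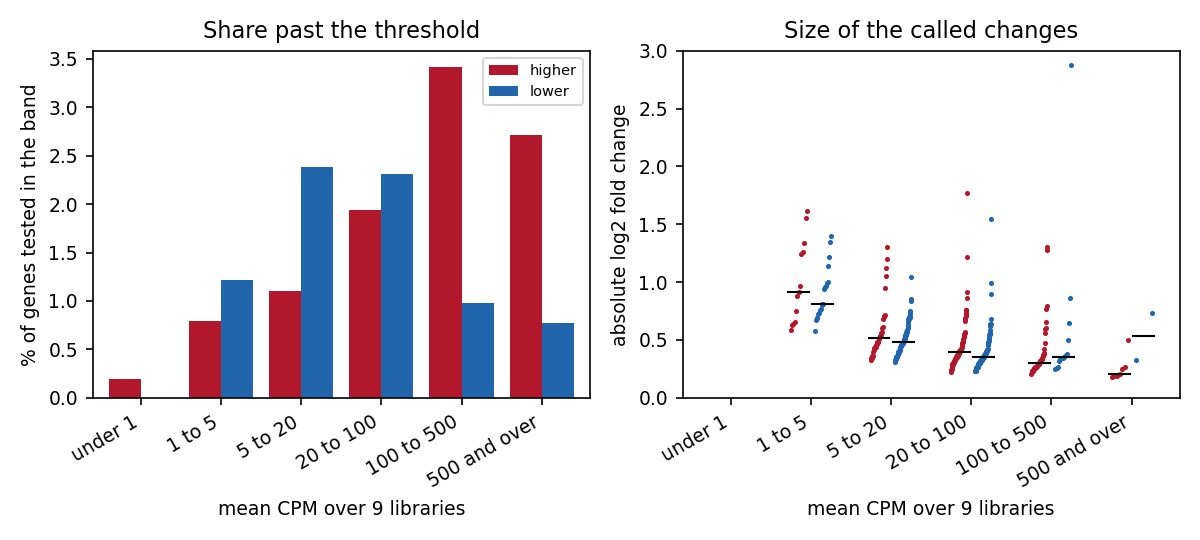
The left plot gives the share of genes tested in each band of mean CPM that were higher (red) or lower (blue) at 50 nM; blue exceeds red from 1 to 100 CPM and red exceeds blue from 100 CPM, the second of which is not seen on the FPKM values. The right plot gives the absolute log2 fold change of each called gene of at least 1 CPM, with the median as a black bar, which falls from band to band for rises.

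Most changes were small. The median absolute log2 fold change of the called genes was 0.41, or 1.33-fold, and 65.8% were under 0.5. By size, 22 genes were under 0.25, 242 from 0.25 to 0.5, 114 from 0.5 to 1, and 23 at 1 or more, of which 16 rose and 7 fell. The smallest called change was 0.18, in COL1A1, one of the most abundant genes. What could pass depended on the level: the median SE of a difference was 0.20 from 1 to 5 CPM, 0.11 from 5 to 20, 0.07 from 20 to 100 and 0.06 at 500 CPM or more, and the median called change went from 0.88 to 0.49, 0.37 and 0.25. Below 1 CPM 3 of 1542 genes passed. Smaller changes of weakly expressed genes were therefore not detectable at this depth.

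At the low end stood LGI4, SLAMF8 and BARHL1, all higher at 50 nM. LGI4 held 0 units in each control and 12, 12 and 11 units at 50 nM, about 3 fragments a library, and SLAMF8 held 3, 0 and 0 units against 25, 21 and 9. BARHL1, a homeobox gene, held 16, 15 and 16 units against 48, 79 and 39. No fold is given for the first 2, since both groups lie at a few fragments, and all 3 lost their call without any one of at least 4 libraries. Above 1 CPM, further genes of large change outside the classes were MYO1A, an unconventional myosin gene, which fell from 2.75, 2.28 and 2.55 CPM to 0.869, 0.895 and 1.21 CPM (-1.35 ± 0.24), and MYLK2, a myosin light chain kinase gene, which rose from 0.778, 0.818 and 0.895 CPM to 2.01, 2.07 and 1.91 CPM (1.26 ± 0.25). At moderate levels MAB21L3 rose from 74.98, 70.0 and 78.4 CPM to 189, 179 and 182 CPM (1.30 ± 0.06, adjusted p = 1.92e-08) and AHDC1, a nuclear AT-hook protein gene, fell from 60.3, 61.2 and 64.4 CPM to 38.6, 40.5 and 36.7 CPM (-0.68 ± 0.06, adjusted p = 1.08e-05). SLF2, of DNA repair by SMC5/6, fell (-0.64 ± 0.08), and the arrestin-domain gene ARRDC3 rose (0.71 ± 0.10).

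Genes known by an identifier only made up 20.5% of those tested, 29 of the 191 that rose (15.2%) and 20 of the 210 that fell (9.52%). The strongest of these were ENSOCUG00000011997.2 and ENSOCUG00000029235.1, which rose by 1.34 ± 0.30 and 1.30 ± 0.19, and ENSOCUG00000029316.1 and ENSOCUG00000023743.1, which changed by -1.14 ± 0.17 and -1.04 ± 0.08. Called genes were also longer in the files' own measure (counts per FPKM, a relative transcript length): the median was 2775 for rises and 3086 for falls against 2225 for all genes with a value. Of the 2097 genes in the shortest quintile 21 rose and 14 fell, and of the 2097 in the longest 44 rose and 51 fell. Median level also went up with length, from 15.5 CPM in the shortest quintile to 45.5 CPM in the longest; its part in these counts was not tested.

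The called genes were separated between the groups in nearly all cases: 187 of the 191 rises and 210 of the 210 falls had no overlap between the 3 control and the 3 treated libraries, against 19.0% of all genes (8.88% higher, 10.1% lower). The test itself favours such genes, so this is a description. The 4 that overlapped all rose: CHI3L1, S100A8, the ubiquitin ligase gene CBLB and an identifier-only gene, and in each 50 nM replicate 3 was the lowest of its group. CHI3L1 stood at 122, 116 and 112 CPM in the controls and 190.1, 208 and 119 CPM at 50 nM. These genes, CBLB apart, were chosen for their overlap after the values were seen. CHI3L1 lost its call without 5 single libraries and S100A8 and CBLB without 4 each. Across the 191 rises the median log2 difference from the control mean was 0.41, 0.44 and 0.36 in 50 nM replicates 1, 2 and 3, and across the 210 falls -0.41, -0.43 and -0.41. Replicate 2 was the highest of its group in 94 of the rises and replicate 3 in 36. The gap between the nearest libraries of the 2 groups had a median of 0.21 for rises and 0.24 for falls, and passed 0.5 in 21 rises and 25 falls.

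**Figure D4:**
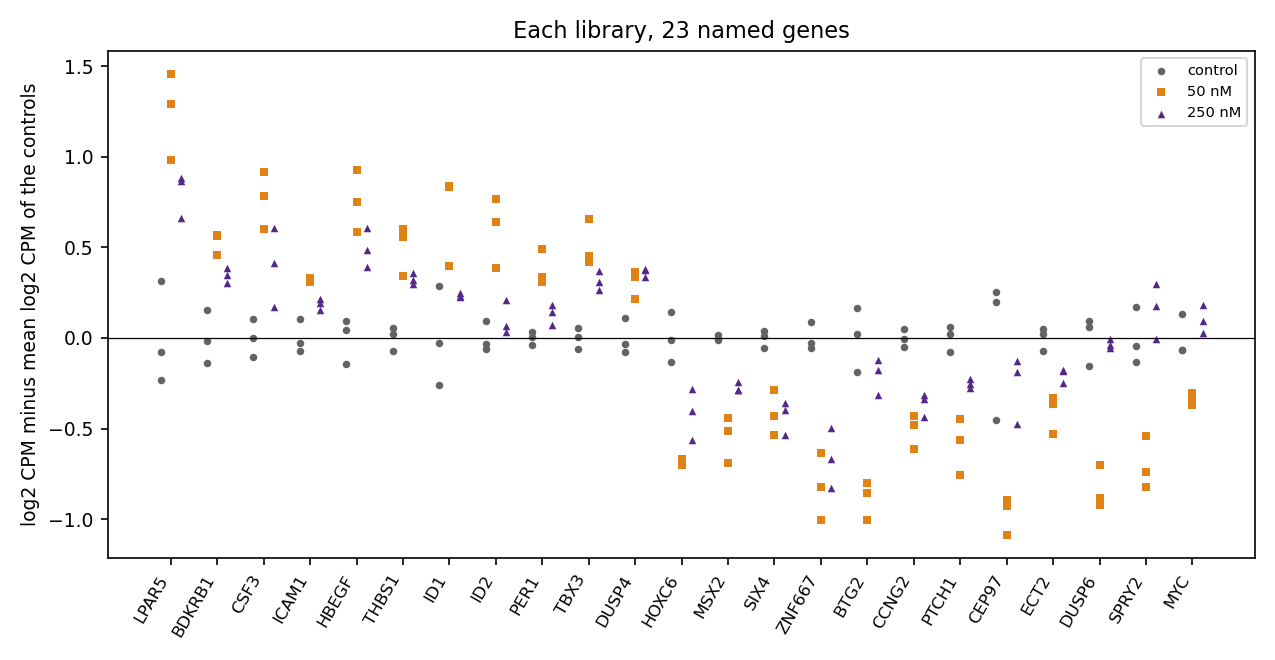
Each point is a library, as log2 CPM minus the mean log2 CPM of the 3 controls, for 23 named genes: controls as grey circles, 50 nM as orange squares, 250 nM as purple triangles. In each gene shown the orange squares lie to one side of the grey circles, and for DUSP6, SPRY2 and MYC the 250 nM libraries lie within or above the range of the controls.

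How many genes passed depended on which libraries were in the fit. Without control replicate 1, 2 or 3 the count was 359, 255 or 187, and without 50 nM replicate 1, 2 or 3 it was 213, 211 or 564. Of the 401 genes, 139 (34.7%) passed in all 6 of these fits, 71 of them rises and 68 falls, 15 passed in 0, and 0 changed sign. Nearly all of the 401 had no overlap between the groups, so leaving 1 library out could hardly change a sign. The median absolute change was 0.56 in the 139 and 0.36 in the rest. A direct check left both libraries of 1 replicate number out of the fit and looked at them afterwards. With number 1 left out, 174 genes passed, and the left-out 50 nM library was above the left-out control in 82 of 89 rises and below it in 80 of 85 falls. The same held in 91 of 92 and 85 of 90 with number 2 left out, and in 144 of 160 and 93 of 97 with number 3. The share in the same direction was 93.1%, 96.7% and 92.2%, against 54.7%, 63.0% and 56.6% over all genes tested. The sizes were smaller in the left-out libraries: the median rise went from 0.47 to 0.38, 0.48 to 0.43 and 0.46 to 0.23, and the median fall from -0.55 to -0.37, -0.56 to -0.51 and -0.59 to -0.41.

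**Figure D5:**
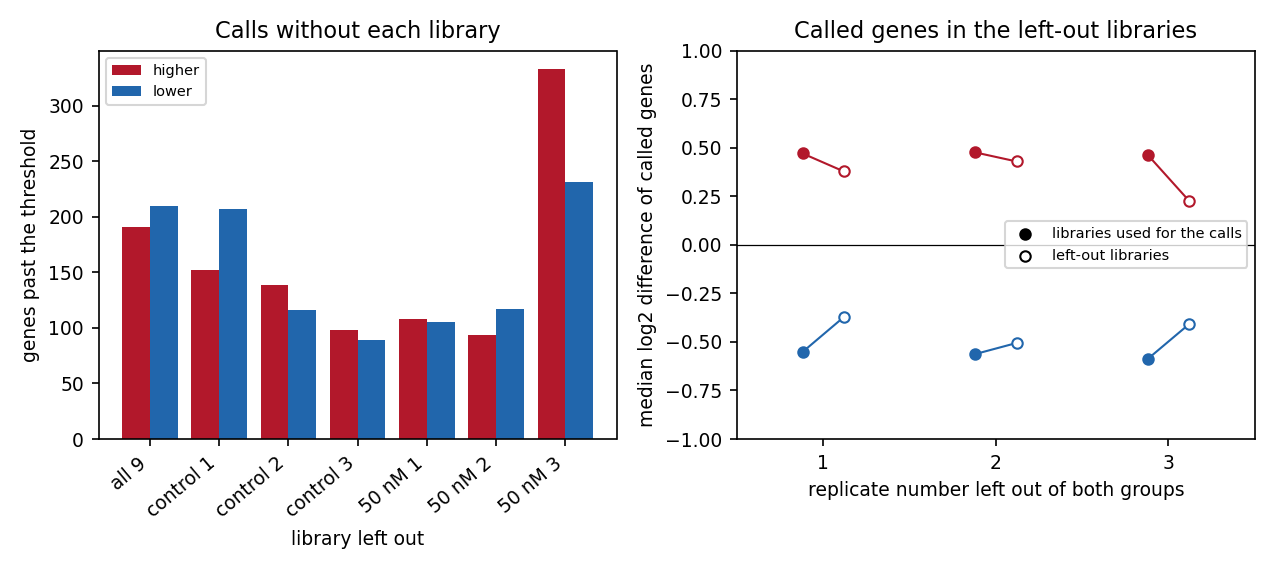
The left plot gives the number of genes higher (red) and lower (blue) at 50 nM with all 9 libraries and without each library named; leaving out 50 nM replicate 3 gives the tallest bars, 333 and 231. The right plot gives the median log2 difference of the called genes in the libraries used for the calls (filled) and in the left-out pair (open), which lies nearer 0 in every case.

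The 250 nM libraries share the controls with this comparison, so their values are set beside it only for named genes. At 250 nM 38 genes (0.308%) differed from the control, and 40 (0.325%) differed between the 2 concentrations. EGR1 stood at 236, 243 and 169.9 CPM at 250 nM, with a difference from the control of -0.50 ± 0.14 (adjusted p = 0.231) and from 50 nM of 2.38 ± 0.15 (adjusted p = 1.4e-06). SPRY2 stood at 14.4, 11.7 and 13.2 CPM and DUSP6 at 15.2, 14.6 and 14.8 CPM, above their 50 nM libraries by 0.86 ± 0.12 (adjusted p = 0.00209) and 0.80 ± 0.10 (adjusted p = 0.000836). MYC (0.44 ± 0.07, adjusted p = 0.00567) and EPHA1 (1.21 ± 0.21, adjusted p = 0.0164) also differed between the concentrations. Of the genes that rose at 50 nM, IRF1 (-0.61 ± 0.06), NUAK2 (-0.58 ± 0.06), CLK1 (-0.59 ± 0.08), HK2 (-0.53 ± 0.09), TIPARP (-0.45 ± 0.08) and TNFAIP3 (-0.92 ± 0.11) were lower at 250 nM than at 50 nM, with adjusted p of 0.0184 or less. DUSP4, PLK3, SDC4, CSRNP1 and NFKBIZ had differences from the control at 250 nM of 0.36 ± 0.06, 0.53 ± 0.07, 0.69 ± 0.10, 0.49 ± 0.07 and 0.60 ± 0.08, each past the threshold there too, and differences between the concentrations of 0.05 ± 0.06, -0.01 ± 0.07, -0.23 ± 0.09, 0.14 ± 0.07 and 0.00 ± 0.08, none past it. For HOXC6, BDKRB1, CEP97 and ZNF606 the differences between the concentrations were 0.28 ± 0.09, -0.19 ± 0.07, 0.71 ± 0.18 and 0.60 ± 0.16 and did not pass, which does not show that the concentrations act alike.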

How the data were processed

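Total RNA of the 9 libraries was isolated with TRIzol and sequenced as mRNA libraries made with a small RNA preparation kit, per the labels' protocols. For every gene the authors deposited an estimated count and an FPKM value in each library. The tools in the submitters' processing notes are Cufflinks, Cuffdiff, TopHat2 2.1.1 and Trim Galore. The counting tool, genome build, annotation and any use of strand were not given in the sources used here, so overlapping genes and near-identical copies may share counts. The deposited counts are whole numbers whose low values pile up at multiples of 4, which is how fragments were estimated. They were used as deposited.

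Groups came from the sample titles; 0 columns belonged to other samples. Of 19291 genes, 13318 have a symbol. Low genes were removed with filterByExpr of edgeR (minimum count 10). The quasi-likelihood test of edgeR 4.0.16 (R 4.3.3, TMM factors) compared 50 nM with control in a model of all 9 libraries with a common spread (biological coefficient of variation 8.92%). Benjamini-Hochberg adjustment of p ran over the 12324 genes tested, threshold 0.05; the analysis was tested on simulated data. CPM were computed here with TMM factors. The SE of a log2 fold change is its size divided by the square root of its F value. Bands use the mean CPM over all 9 libraries. FPKM values were compared with limma 3.58.1 on log2(FPKM + 1) and log2(FPKM + 0.1).

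Members of 70 functional classes were listed from textbook knowledge with earlier results of these data known, and are described by counts and medians beside all genes. Named genes were those with a symbol and at least 1 CPM that had the 20 largest rises or the 20 largest falls, up to 4 genes per direction in each class with at least 2 called members and in each of the 6 bands, the 6 most abundant called genes, and ESR1, ESR2, GPER1, PGR and STRA6. Gene order was read from RefSeq's gene table for the rabbit (assembly mOryCun1.1), which may differ from the build the authors used. Only tested genes whose symbol occurs there once were placed (9332), so genes called neighbours may have others between them. Alternatives were DESeq2 1.42.0, upper-quartile and RLE factors, limma-voom, other filters, the 6 libraries alone, a replicate block, the FPKM values, counts divided by 4, a size threshold and leaving libraries out. Some genes and a class are not reported here.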

Additional observations from a re-analysis of the deposited data

How the results depend on the processing

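The counts below stand against 401 genes changed, 191 higher and 210 lower, 23 of them by a log2 fold change of at least 1 (16 higher, 7 lower), with 56 higher and 16 lower of 100 CPM or more and 50 higher and 93 lower under 20 CPM. DESeq2 called 702 genes, 372 higher and 330 lower, with 123 higher of 100 CPM or more and 96 higher and 156 lower under 20 CPM. Requiring 5 CPM in 3 libraries left 12 genes changed by at least 1. With only the control and 50 nM libraries, 244 genes passed, 115 higher and 129 lower, with 26 higher of 100 CPM or more and 31 higher and 57 lower under 20 CPM. On log2(FPKM + 1), 85 genes were higher, 8 changed by at least 1, 15 were higher of 100 CPM or more and 27 higher under 20 CPM. Without a filter on low values the same scale gave 234 genes, 77 higher, 8 changed by at least 1, 13 higher of 100 CPM or more and 22 higher under 20 CPM. On log2(FPKM + 0.1), 88 were higher, 15 of them of 100 CPM or more and 28 under 20 CPM, while the median over all genes moved to -0.05. The cause of these differences was not tested. Counts divided by 4 (453), no filter (499), limma-voom (376), upper-quartile (404) and RLE (394) factors stayed within 1.5 times the count of 401.

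Deviations of same-numbered control and 50 nM libraries had correlations of -0.225, 0.498 and 0.161 for numbers 1, 2 and 3. Each control with the differently numbered 50 nM libraries gave -0.395 to 0.488, -0.533 to 0.156 and -0.236 to 0.069. Whether the numbers mark pairs cannot be told from so few values, and the labels state no pairing. A replicate block gave 492 genes, 258 higher and 234 lower, with 90 higher of 100 CPM or more. With single libraries or same-numbered pairs left out, counts ran from 174 to 564 in all, 89 to 333 higher, 85 to 231 lower and 22 to 36 changed by at least 1. The count of 100 CPM or more ran from 21 to 124 higher and 11 to 22 lower, and that under 20 CPM from 16 to 74 higher and 30 to 100 lower. Of the values of named genes under the alternatives, 2940 kept their side of the threshold, 791 kept the direction only and 0 reversed. Direction was compared only where a gene passed in at least 1 of the 2 fits. Of the class counts, 1388 stayed within 1.5 times and 460 did not. The 1388 include counts that were 0 in the main fit and stayed 0, so they overstate how steady the other counts were. Depth limits genes under 5 CPM, where changes under the called sizes could not be seen, and 3 libraries a group limit every count.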
